A study of Saccharomyces cerevisiae with 9 samples.

Results

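The Ty retrotransposon genes of budding yeast (Saccharomyces cerevisiae) were taken as every gene whose annotation in the deposited table names a retrotransposon TY product, which gave 90 of 7122 genes. Of these, 46 encode Gag and 44 encode Gag-Pol. They were selected by annotation and chosen with the measured counts of YDR098C-B, higher in the dgk1Δ libraries, already known, so values of the Ty genes that involve dgk1Δ are given as a description with no p-value, and where a number of calls is given for them, nothing is read from it. RNA was measured in a CEN.PK prototrophic strain (written CEN.P.K in the labels) of 3 genotypes, with 3 libraries each: WT, pah1Δ and dgk1Δ, the last 2 written pah1-delta and dgk1-delta in the plots. Pah1 is a phosphatase that turns phosphatidate into diacylglycerol, and Dgk1 is a kinase acting in the opposite direction. All cultures grew in minimal medium with 2% glucose to log phase, and no drug or stress was applied per the labels. The labels do not say whether each deletion strain was 1 clone or whether replicates came from different cultures, and the spread behind each p-value may thus be technical.

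Ty elements are long terminal repeat (LTR) retrotransposons. An element is transcribed from its left repeat into a polyadenylated RNA that is both a messenger and the template for new DNA copies. Gag forms the virus-like particle, and Pol supplies the protease, integrase and reverse transcriptase. Pol is translated as a Gag-Pol fusion when the ribosome slips into another reading frame at a short heptamer, so both genes of an element are annotated on the same stretch of DNA. Ty1 is the most numerous family in the reference strain, Ty2 is its close relative, and Ty3, Ty4 and Ty5 are rarer. Integration of Ty1 and Ty3 is known to favour sites next to genes transcribed by RNA polymerase III, such as tRNA genes.

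The frameshift site is shown for 1 Gag-Pol gene of each family with members, because it is the place where the Gag and Gag-Pol genes part. Sequences are from the RefSeq S288C reference, build R64, 5′ to 3′ on the coding strand, with the heptamer in capitals. They lie at chrIV:649798-649844 (minus strand) for YDR098C-B, chrII:31205-31251 (plus strand) for YBL100W-B, chrVII:708442-708488 (plus strand) for YGR109W-B and chrVIII:86972-87018 (plus strand) for YHL009W-B.
YDR098C-B (Ty1): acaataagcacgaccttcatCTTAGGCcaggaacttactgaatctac
YBL100W-B (Ty2): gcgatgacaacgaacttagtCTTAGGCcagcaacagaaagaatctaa
YGR109W-B (Ty3): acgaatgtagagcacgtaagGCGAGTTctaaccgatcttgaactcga
YHL009W-B (Ty4): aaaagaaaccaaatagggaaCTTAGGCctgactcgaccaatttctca
The heptamer stood at the junction of the annotated coding parts in all 28 Ty1, all 10 Ty2, both Ty3 and both Ty4 Gag-Pol genes that have 2 coding parts. Ty1, Ty2 and Ty4 share 1 heptamer, and Ty3 has its own.

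Apart from YDR170W-A and YLR035C-A, which lay in no annotated element, the Ty genes belonged to 45 of the 50 Ty elements annotated in the reference. Ty1 had 60 of the genes, Ty2 had 20, and Ty3 and Ty4 had 4 each. The 90 genes were spread over all nuclear chromosomes except XI, with the most on IV, which carried 17. Of the 50 elements, 38 (76%) lay within 1 kb of a tRNA gene, against 413 of 6591 other genes (6.27%). The median distance to a tRNA gene was 197.5 bases for the elements and 17317 bases for the other genes. This placement is a property of the S288C reference; where Ty elements lie in the CEN.PK strain was not analysed here.

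Copies within a family are almost the same sequence, which bears on every count below. Among 24 Ty1 Gag-Pol genes of equal genomic length (5269 bases), the 276 pairs differed at 1 to 441 positions, with a median of 145.5 (97.2% identity), and 0 pairs were identical. The closest pair was YLR157C-B and YPL257W-B, with 1 difference. YDR098C-B was nearest to YGR038C-B, from which it differed at 31 positions (99.4% identity). It carried 7 bases found in none of the other copies at the same position, all in the Pol part between gene positions 4379 and 5046. Of these, 6 fall in the 90-base window shown here, at gene positions 4349 to 4438, because it is where the private bases of YDR098C-B cluster; the pair also differs at positions outside it. Capitals mark the bases that differ between the pair, and positions in the window are counted from 1 at its 5′ end. The window lies at chrIV:646689-646778 (minus strand) in YDR098C-B and at chrVII:563030-563119 (minus strand) in YGR038C-B.
YDR098C-B: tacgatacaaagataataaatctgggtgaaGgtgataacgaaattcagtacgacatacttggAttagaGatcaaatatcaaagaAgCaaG
YGR038C-B: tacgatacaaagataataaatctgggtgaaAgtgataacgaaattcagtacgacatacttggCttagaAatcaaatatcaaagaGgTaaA
With YDR098C-B given first, the differences are G31A, A63C, G69A, A85G, C87T and G90A.

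The share of each gene that can be placed was measured as the share of its 100-base windows found once in the genome on either strand. In Ty1 Gag-Pol genes this share had a median of 1.93% and reached 25.1% at most, and in Ty2 Gag-Pol genes the median was 7.61%. The Ty3 Gag-Pol genes reached 57.0% and 57.4%, and the median over 6441 other genes was 100%. YDR098C-B had 2.22% and YLR256W-A, a Ty1 Gag gene, had 2.61%. Outside overlapping genes 56 Ty genes had no such window, and they held 6931 of the 50810 Ty counts. With 150-base windows 54 Ty genes had none and held 3763 counts; YGR027W-B, with 2388 counts, had 0 unique windows of 100 bases and 22 of 150. Across the 44 Gag-Pol genes, which share family sequence and libraries, the number of unique windows and the total count had a Spearman correlation of 0.284. How the authors assigned reads that match several copies is not given in the sources used here, so a count for 1 copy may hold reads from others.

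**Figure D1:**
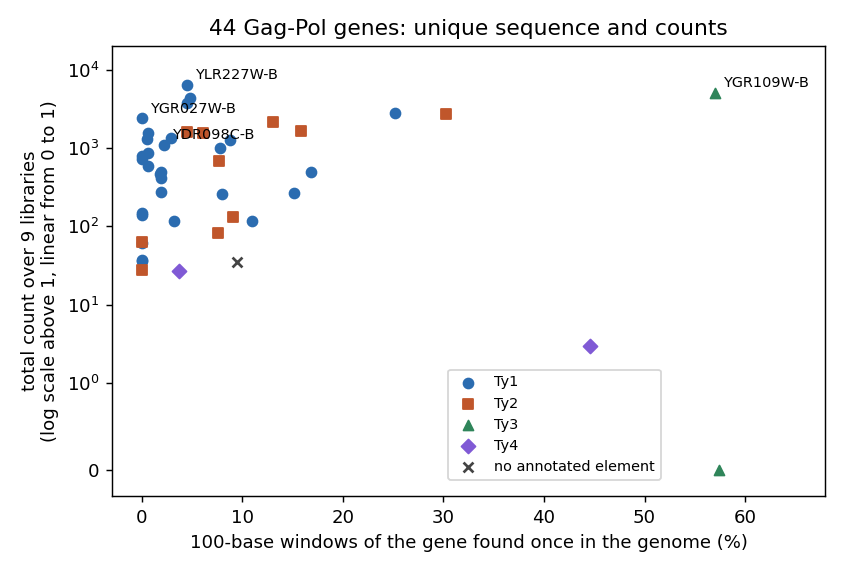
Total count over the 9 libraries (y axis, log scale above 1 and linear from 0 to 1) against the share of 100-base windows found once in the genome (x axis, %), for the 44 Gag-Pol genes, with symbols by family. Ty3 lies far to the right with 57.0% and 57.4%, while YGR027W-B held 2388 counts at 0%.

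The Ty genes took a small part of each library. The libraries held between 9205454 and 12795803 counts, and the Ty share from 0.0295% in WT replicate 1 to 0.0681% in dgk1Δ replicate 2. The deleted genes matched the labels, with 0 counts for PAH1 in each pah1Δ library and 1 to 2 counts for DGK1 in the dgk1Δ libraries. WT replicate 1 stood apart from WT replicates 2 and 3 (chi-square per degree of freedom over genes 53.6 and 39.9, against 3.55 between the other two). Longer genes were lower in it relative to its group (Spearman correlation -0.746 over 5299 genes), and the same held for pah1Δ replicate 2 (-0.682). These 2 libraries were also the lowest of the 9 for most Ty genes tested, WT replicate 1 for 22 of 37 and pah1Δ replicate 2 for 9; the part of gene length in the Ty values was not tested apart from the fits with the length trend removed.

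Nearly all Ty counts (97.0%) fell on Gag-Pol genes. Of the 90 genes, 26 had 0 counts in all 9 libraries and 25 of these were Gag genes. For counting error only, a 0 is compatible with as many as 3 counts, which is 0.234 to 0.326 CPM (counts per 1000000 counts of a library). Of the 46 Gag genes, 42 lie wholly inside another annotated gene, so a read there matches both, and low Gag counts do not show that Gag is unexpressed. No strand-marking step is given in the protocol, so antisense reads cannot be told apart. After the filter on low counts 37 Ty genes were tested, 35 Gag-Pol genes together with the Gag genes YLR256W-A and YDR210C-C. The 53 others, all the Ty4 genes among them, were not tested.

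Ty1 made up most of the Ty counts, and its summed level in dgk1Δ lay at or above the highest WT library. Summed over the 60 Ty1 genes, without TMM scaling, the level was 207.2, 423.7 and 374.6 CPM in WT replicates 1 to 3. It was 336.6, 235.7 and 371.9 CPM in pah1Δ and 435.6, 494.8 and 423.7 CPM in dgk1Δ. The lowest dgk1Δ value and the highest WT value are the same at this rounding. The means were 335.1 ± 113.5 CPM in WT, 314.7 ± 70.7 in pah1Δ and 451.3 ± 38.1 in dgk1Δ (SD, n = 3), and the WT mean without replicate 1 was 399.1 CPM. Without YDR098C-B, YLR256W-A and YGR038C-B, the remaining 57 Ty1 genes gave 312.1 ± 106.2 CPM in WT, 296.4 ± 68.6 in pah1Δ and 385.2 ± 15.3 in dgk1Δ, and WT and dgk1Δ overlapped.

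Ty2 and Ty3 levels overlapped between all genotypes. The 20 Ty2 genes summed to 51.1, 149.5 and 113.7 CPM in WT, 133.9, 87.1 and 132.8 in pah1Δ, and 123.9, 120.4 and 108 in dgk1Δ. The 4 Ty3 genes summed to 48.8 ± 11.2 CPM in WT, 56.2 ± 5.82 in pah1Δ and 56.1 ± 7.49 in dgk1Δ (SD, n = 3). Almost all Ty3 counts were assigned to YGR109W-B, on chromosome VII, with 5046 over the 9 libraries. YIL082W-A on chromosome IX had 0 counts in all 9 libraries, but it is overlapped over 100% of its length by YIL080W and YIL082W, so a read there matches several genes and the 0 does not show that this element is silent. The Ty4 genes were close to the floor: YHL009W-B had at most 8 counts in a library and YJL113W at most 1.

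**Figure D2:**
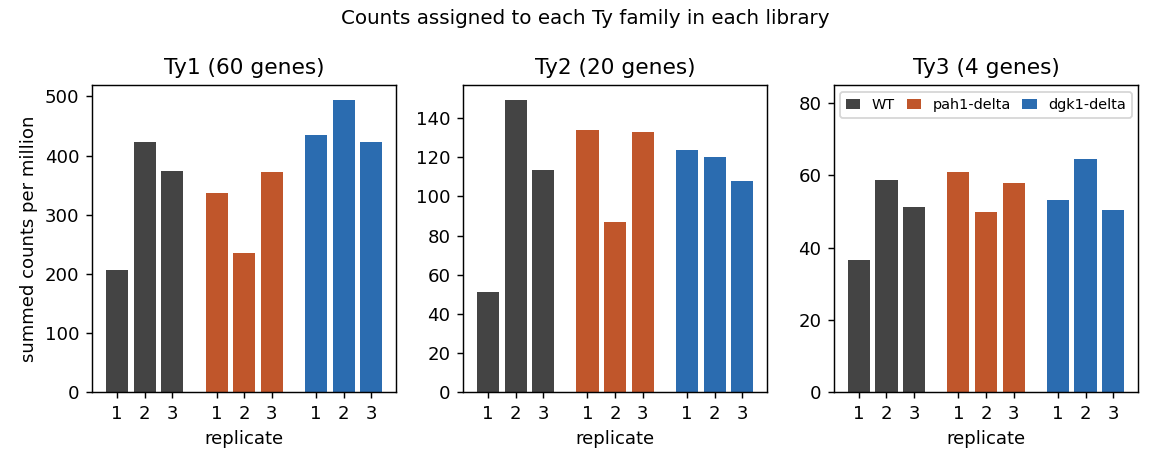
Summed CPM, without TMM scaling (y axis, linear from 0) for Ty1, Ty2 and Ty3 in each library, with 1 bar per replicate and colours by genotype. WT replicate 1 is the lowest bar in each family, and the Ty1 bars of dgk1Δ run from 423.7 to 494.8 CPM.

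YDR098C-B stood out among all Ty genes in dgk1Δ. This Ty1 Gag-Pol gene lies on chromosome IV (645858 to 651126, minus strand, build R64) between GRX3, a glutaredoxin gene, and BMH2, a 14-3-3 protein gene. Its counts were 59, 46 and 44 in WT replicates 1 to 3, 77, 56 and 67 in pah1Δ, and 211, 296 and 240 in dgk1Δ. No dgk1Δ library overlapped any other library, and the highest count elsewhere was 77. After TMM scaling the level was 4.88 ± 0.132 CPM in WT, 6.23 ± 0.407 in pah1Δ and 22.9 ± 1.82 in dgk1Δ (SD, n = 3). This is a log2 fold change of 2.23 (SE 0.132), or 4.68-fold, for dgk1Δ against WT. The gene had the smallest replicate spread of the 37 tested Ty genes in WT and in pah1Δ. Its coefficient of variation was 2.71% in WT, against a median of 33.7% over the tested Ty genes and 11.9% over 6150 genes. With WT counts of 44 to 59, this is smaller than the spread that counting error alone gives on average. It is therefore not read as a trait of the gene.

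YLR256W-A was the other Ty gene far above WT in dgk1Δ by its level in every library. It is a Ty1 Gag gene. In the S288C reference it lies on chromosome XII (651117 to 652439, plus strand) next to HAP1, which encodes a haem-responsive transcription factor. Whether the CEN.PK strain carries it at that place was not analysed here. The counts of YLR256W-A were 82, 114 and 96 in WT, 99, 56 and 72 in pah1Δ, and 206, 261 and 159 in dgk1Δ. The dgk1Δ libraries lay above all others. The level was 9.78 ± 2.51 CPM in WT and 19.0 ± 2.42 in dgk1Δ (SD, n = 3), a log2 fold change of 0.97 (SE 0.205). Left-out libraries moved this value between 0.77 (without WT replicate 1) and 1.13 (without WT replicate 2). It held most of the Gag counts, and no other gene of the table overlaps it. Its 1323 bases differ at 3 positions from the nearest Gag sequences and at 12 from the Gag part of YDR098C-B.

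YGR038C-B, the nearest copy of YDR098C-B, varied widely between libraries of 1 genotype. Its counts were 62, 165 and 36 in WT, 62, 32 and 51 in pah1Δ, and 142, 626 and 109 in dgk1Δ. The value of 626 in dgk1Δ replicate 2 stood far above the rest, and the WT and dgk1Δ libraries overlapped. Its log2 fold change was 1.52 (SE 0.606) for dgk1Δ against WT, 0.53 without dgk1Δ replicate 2 and 2.42 without WT replicate 2. The copy with the next fewest differences from YDR098C-B, YDR210C-D with 45, had a log2 fold change of 0.18. Across the 20 other tested Ty1 copies of equal length, which share sequence and libraries, the number of differences from YDR098C-B and this log2 fold change had a Spearman correlation of -0.223.

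**Figure D3:**
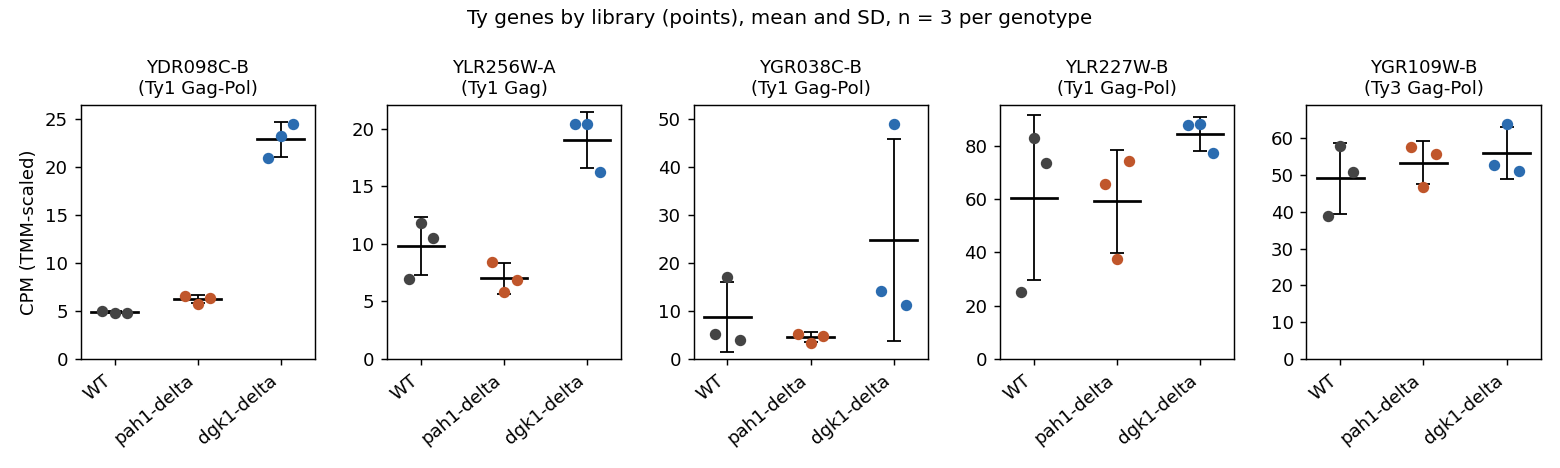
TMM-scaled CPM (y axes, linear from 0, each with its own range) in each library (points) for 5 Ty genes, with the mean as a line and the SD as a bar, n = 3. YDR098C-B sits at 22.9 CPM in dgk1Δ against 4.88 in WT, YGR038C-B has 1 high dgk1Δ library, and the Ty3 gene YGR109W-B overlaps between genotypes.

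The other Ty genes moved less. For dgk1Δ against WT, 2 of 37 tested Ty genes were called higher at an adjusted p under 0.05, against 1.64% of all 6150 genes, and 0 were called lower, against 0.276%. Both counts belong to the contrast used to choose the genes, and the call of YLR256W-A was lost with a replicate block, with only the 2 groups fitted, with limma on FPKM, without WT replicate 3 and without any 1 of the dgk1Δ replicates. The log2 fold change was above 0 in 33 of 37 Ty genes, against 51.6% of all genes, and its median was 0.31, against 0.01 over all genes. WT replicate 1 weighed on both: without it 24 of 37 were above 0, against 49.2% of all genes, and the median was 0.06. YLR227W-B then went from 0.49 to 0.11, and the Ty2 genes YBL100W-B and YOR343W-B went from 0.13 and 0.15 to -0.16 and -0.32. The dgk1Δ libraries lay above the WT libraries without overlap in 5 of 37 (YDR098C-B, YJR029W, YLR157C-B, YLR256W-A and YMR050C), against 9.15% of all genes. At the low end stood the Ty2 gene YLR410W-B, with a log2 fold change of -0.33 (SE 0.577), but its sign turned (0.60) when WT replicate 3 was left out, and it was -0.79 when WT replicate 1 was. The Ty gene with the most counts, YLR227W-B on chromosome XII, had 294, 797 and 668 counts in WT and 885, 1126 and 755 in dgk1Δ, which overlap. Of the Ty1 difference between dgk1Δ and WT in summed mean CPM, YLR227W-B made up 20.7%, YDR098C-B 15.4%, YGR038C-B 13.7% and YLR256W-A 7.99%. These shares include WT replicate 1, where YLR227W-B had 294 counts, and were not recomputed without it. Leaving it out raised the summed Ty1 mean in WT from 335.1 to 399.1 CPM, so the shares and their order may change.

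The 10 tested genes flanking YDR098C-B, 5 on each side, had a median log2 fold change of 0.06 for dgk1Δ against WT and ran from -0.42 to 0.41, and GRX3 and BMH2 had 0.02 (SE 0.122) and 0.09 (SE 0.0793). The flank of YLR256W-A had a median of 0.04. Over the 37 tested Ty genes the flank medians ran from -0.08 (YGR038C-B) to 0.18 (YHR214C-B). The flanks are those of the S288C reference. Where the counted copies lie in the CEN.PK strain was not analysed.

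In the S288C reference, Ty sequence lay at the edges of both chromosome stretches with higher RNA in dgk1Δ. A running median over 15 genes with a mean of at least 10 CPM, Ty genes left out, exceeded 0.25 (log2) in 2 stretches, on chromosomes III and IX. On III the 35 genes on the high side of the edge had a median log2 fold change of 1.03 (2.05-fold), and the other 101 genes had -0.02. On IX the 52 genes on the high side had 0.92 (1.90-fold), and the other 138 had 0.01. The median ratio to the WT mean on the high side of III was 1.96, 2.03 and 2.03 in dgk1Δ replicates 1 to 3, and 1.05, 1.01 and 1.02 in pah1Δ. On IX it was 1.90, 1.83 and 1.96 in dgk1Δ and 1.02, 1.09 and 0.989 in pah1Δ. Over both stretches the WT libraries ran from 0.984 to 1.06, so the dgk1Δ libraries lay above all others.

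The edge on chromosome III fell between KCC4 (log2 fold change 1.13, SE 0.126), a protein kinase gene, and LEU2 (-0.06, SE 0.100), a leucine biosynthesis gene. The 9048 bases between them (82275 to 91324) hold the full Ty2 element YCLWTy2-1 (84811 to 90769), 5 annotated Ty1 LTRs and 2 tRNA genes. Genes with a mean under 10 CPM were left out when the edge was placed. The tested gene YCL021W-A, which lies between KCC4 and the Ty2 gene YCL019W, is among those left out. The edge on chromosome IX fell between BAR1 (0.13, SE 0.108), which encodes the protease that degrades alpha factor, and YIL014C-A (0.83, SE 0.146). The 1106 bases between them (324105 to 325212) hold a Ty3 LTR (324391 to 324734), a Ty1 LTR (324831 to 325164) and a tRNA gene. Over the whole genome there were 5137 gaps between successive genes of this set (mean of at least 10 CPM, Ty genes left out). Of these, 180 (3.5%) hold a Ty element or LTR. The gaps were not matched for length, and a longer gap has more room for such sequence, so this share is not a matched background for the 2 edges. The Ty2 gene YCL019W, inside the gap on III, had 49, 257 and 192 counts in WT, 181, 67 and 170 in pah1Δ, and 257, 250 and 180 in dgk1Δ. WT and dgk1Δ overlapped, and its log2 fold change was 0.31 (SE 0.496).

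**Figure D4:**
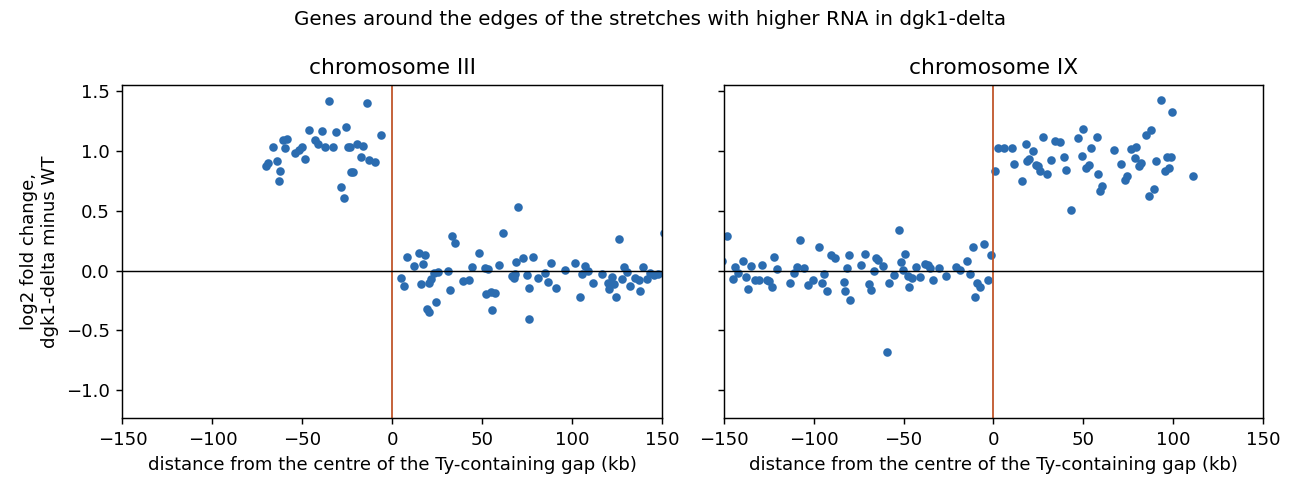
Log2 fold change for dgk1Δ against WT (y axis) of genes with a mean of at least 10 CPM, against the distance in kb from the centre of the Ty-containing gap (x axis, vertical line at 0) on chromosomes III and IX. The genes left of the gap on III have a median of 1.03 and those right of the gap on IX 0.92, and the genes across each gap lie around 0.

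DNA copy number was not measured, and the stretches cannot be told apart from the loss of DGK1 in these libraries. Inside the stretches, all the way to the chromosome end, 84 of 104 tested genes were called higher in dgk1Δ (80.8%). Outside them 17 of 6046 were called higher (0.281%). YDR098C-B and YLR256W-A are 2 of these 17, but this contrast was used to choose the Ty genes, so nothing is read from it. The call of YLR256W-A was also lost in several of the alternative fits. No Ty gene tested lay inside a stretch beyond the gaps at its edges.

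No Ty gene passed the test in pah1Δ against WT (edgeR's quasi-likelihood test, Benjamini-Hochberg adjustment over 6150 genes). Of 37 tested, 0 rose and 0 fell, against 16.6% and 12.6% of all genes. At an unadjusted p under 0.05 there were 2, and DESeq2 called 0. The median coefficient of variation of the tested Ty genes was 33.7% in WT and 23.5% in pah1Δ, against 11.9% and 8.72% over all genes. A change of the same size is thus harder to call for the Ty genes, and the 0 calls do not show a smaller response. The median log2 fold change of the Ty genes was -0.03, against 0.00 over all genes, and values ran from -0.95 for YGR038C-B (SE 0.694, edgeR adjusted p = 0.341) to 0.49 for YDR210C-C (SE 0.504, edgeR adjusted p = 0.509). The value of YGR038C-B rested on WT replicate 2, with 165 counts, and was -0.054 without it.

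The smallest adjusted p belonged to YDR261W-B, a Ty2 Gag-Pol gene on chromosome IV. It had 154, 186 and 127 counts in WT and 262, 172 and 253 in pah1Δ, and the groups overlapped. Its level was 15.4 ± 3.36 CPM in WT and 21.3 ± 3.24 in pah1Δ (SD, n = 3), a log2 fold change of 0.47 (SE 0.169, edgeR adjusted p = 0.0593). YDR098C-B differed by 0.35 (SE 0.143, edgeR adjusted p = 0.089), and it was the 1 Ty gene of 37 whose pah1Δ libraries all lay above WT, against 22.0% of all genes. The Ty3 gene YGR109W-B had 455, 558 and 463 counts in WT and 676, 454 and 589 in pah1Δ. Its log2 fold change was 0.12 (SE 0.150, edgeR adjusted p = 0.581).

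WT replicate 1 bore on the falls in pah1Δ. Without it, 5 Ty genes fell (edgeR, adjusted p under 0.05), against 19.0% of all genes. They were YCL019W (log2 fold change -0.88), YDR365W-B (-1.35), YHR214C-B (-0.75), YJR027W (-0.46) and YLR256W-A (-0.66), with edgeR adjusted p from 0.00522 to 0.0219. YHR214C-B, a Ty1 Gag-Pol gene on chromosome VIII, had 349, 589 and 559 counts in WT and 480, 227 and 467 in pah1Δ. With all libraries its log2 fold change was -0.48 (SE 0.276, edgeR adjusted p = 0.228). YCL019W, YDR365W-B and YJR027W were named after their values were seen.

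**Figure D5:**
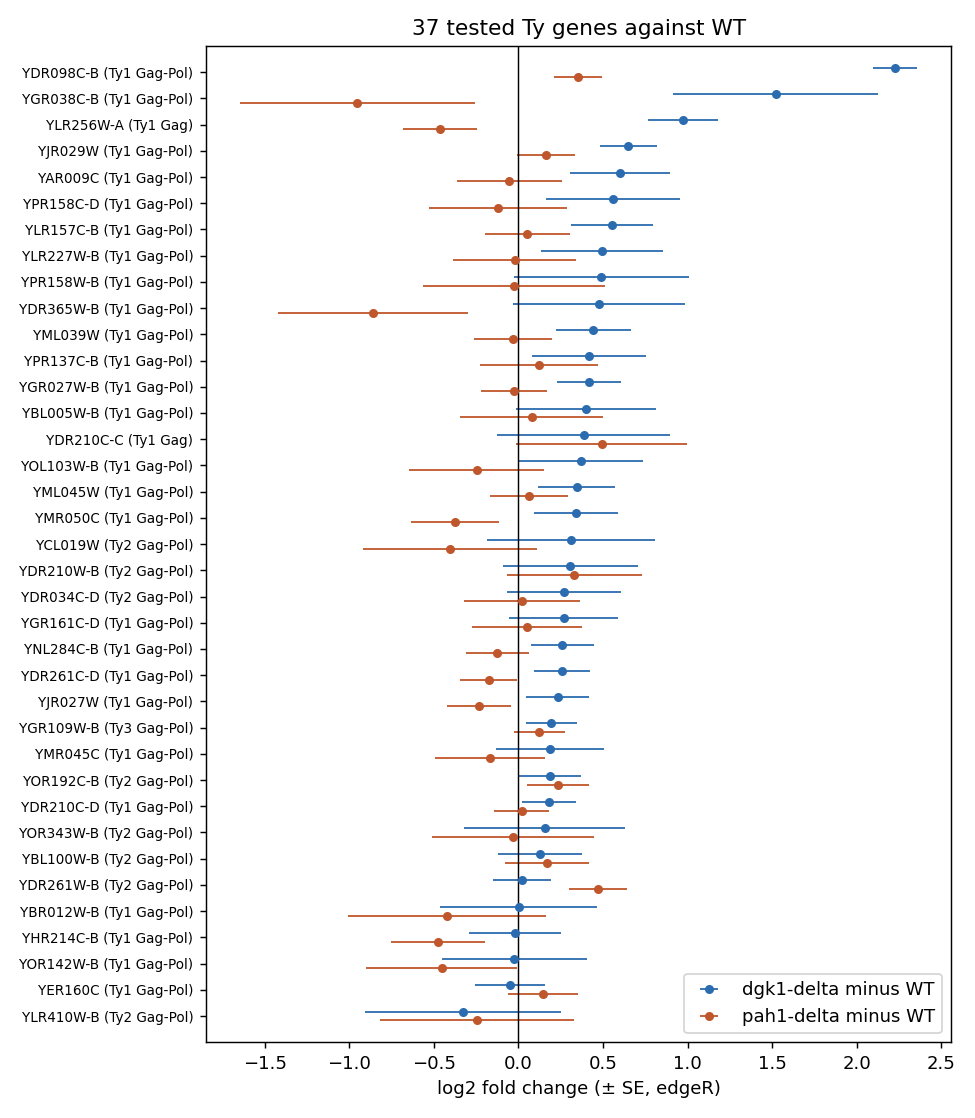
Log2 fold change with its SE (x axis) of each of the 37 tested Ty genes (y axis, ordered by the dgk1Δ value) for dgk1Δ and pah1Δ against the shared WT libraries. YDR098C-B is at 2.23 in dgk1Δ, while the pah1Δ values run from -0.95 to 0.49.

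In the direct comparison of the deletion strains, which shares the dgk1Δ libraries with the choice of genes, 3 Ty genes were called lower in pah1Δ. These were YDR098C-B (log2 fold change -1.87, SE 0.127), YGR038C-B (-2.47, SE 0.650) and YLR256W-A (-1.43, SE 0.210). None was called higher. The call of YGR038C-B was lost without dgk1Δ replicate 2 (log2 fold change -1.49), without any 1 of the pah1Δ replicates and with limma on FPKM. The background was 10.8% of all genes called lower and 14.2% called higher. The pah1Δ libraries lay below dgk1Δ without overlap in 16 of 37, against 23.4% of all genes. They lay above it in 1, YDR261W-B, against 25.2%.

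The sequence ahead of the Ty1 genes was compared because YDR098C-B and YLR256W-A were both high in dgk1Δ. The 300 bases before the start codon of YDR098C-B, shared with the Gag gene YDR098C-A, lie at chrIV:651127-651426 (minus strand, build R64).
YDR098C-A upstream: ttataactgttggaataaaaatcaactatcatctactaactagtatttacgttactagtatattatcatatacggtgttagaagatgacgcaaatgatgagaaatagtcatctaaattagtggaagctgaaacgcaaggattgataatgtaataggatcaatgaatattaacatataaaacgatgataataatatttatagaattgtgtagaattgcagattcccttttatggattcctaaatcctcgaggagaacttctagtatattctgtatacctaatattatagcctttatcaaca
The same window of YLR256W-A differed at 5 positions. All of these lie outside the annotated elements, which begin at chrIV:651419 (minus strand) and chrXII:650824 (plus strand). Inside the elements both windows are the same sequence. Motifs were searched on both strands: TGAAACA for Ste12, CATTCC for Tec1 and TGACTC for Gcn4, which are known regulators of Ty1 or Ty2 transcription. The Tec1 motif was in 21 of 31 Ty1 windows (67.7%) and in 9.83% of the 6590 windows of other genes. The Ste12 motif was in 8 of 31 (25.8%) and in 6.89%, and the Gcn4 motif in 0 of 31 and in 8.13%. Neither the window of YDR098C-A nor that of YLR256W-A holds any of the 3 motifs, which says only that these letters are not there.

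All 57 host genes known to act on Ty, in 6 lists, were tested. In dgk1Δ against WT 0 passed with edgeR, where 1.64% of all genes were called higher and 0.276% lower. With so few calls over the whole table, nothing is read from this 0. There were 2 at an unadjusted p under 0.05, and 0 passed with DESeq2. In pah1Δ against WT 2 rose and 4 fell (edgeR), 10.5% against 29.2% of all genes. Without WT replicate 1 the number that fell in pah1Δ was 19, against 19.0% of all genes. It was 10 with DESeq2 and 10 with the length trend removed, against 13.9% and 18.8% of all genes. Those that rose were STE11 (log2 fold change 0.44, SE 0.0933, edgeR adjusted p = 0.00527) and KSS1 (0.44, SE 0.106, edgeR adjusted p = 0.00979). Both are kinases of the filamentation pathway upstream of Ste12 and Tec1, a list of 8 genes. Of 17 activators of Ty transcription 2 fell, RAP1 (-0.58, SE 0.0891, edgeR adjusted p = 0.000788) and GCR1 (-0.44, SE 0.125, edgeR adjusted p = 0.0218), both also activators of glycolytic genes. RTT10, a regulator of Ty1 transposition, fell by 0.40 on the log2 scale (edgeR adjusted p = 0.0142), 1 of 8 in its list. RPC40, the polymerase subunit that Ty1 integrase binds, fell by 0.28 on the log2 scale (edgeR adjusted p = 0.0202), 1 of 7 integration partners. No gene passed among 12 chromatin factors named as suppressors of Ty or among 5 RNA decay and debranching cofactors. In pah1Δ against dgk1Δ, 1 host gene rose (KSS1, 0.60, SE 0.106) and 8 fell, against 14.2% and 10.8% of all genes. In the activator list 5 fell there, among them RAP1, GCR1, TEC1 and GCN5, and SPT6, RTT107 and RTT10 also fell.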

How the data were processed

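The deposited table held raw read counts per gene for 9 libraries and FPKM values that the authors had computed from them over exonic gene size, per the file headers. HISAT2 2.2.1, HTSeq 0.6.1 and build R64 were used, per the submitters' processing notes. The handling of reads that match several places is not given in the sources used here. In all, 6045 of 7122 identifiers matched the R64 annotation, and 4 empty lines were dropped.

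The members and lists were chosen with earlier results of these data known. Counts were fitted in R 4.3.3 with edgeR 4.0.16: filterByExpr (6150 genes), TMM and 1 robust quasi-likelihood model over all 9 libraries with a mean per genotype (6 residual degrees of freedom). The call was an adjusted p (Benjamini-Hochberg) under 0.05. The fit was tested on simulated data. Alternatives were other scalings, no filter, 2 groups only, a replicate block, removal of each library's trend with gene length, leaving out each replicate, DESeq2 1.42.0, and limma 3.58.1 on log2(FPKM + 1). Named genes were YDR098C-B, members called in pah1Δ, the 2 most abundant members per family and kind, the extreme members per contrast, and up to 4 called genes per host list. The 2 chromosome stretches and their edges (the single split of the chromosome's genes with the least squared deviation) were added after the data were seen, as was TMM scaling of the summed levels. The 300-base and 100-base windows came from the R64 reference.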

Additional observations from a re-analysis of the deposited data

How the results depend on the processing

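Of the values recomputed, summed family levels moved by less than the SD between libraries with TMM scaling. When 1 of 3 replicates is left out, the mean always moves by less than their SD, so nothing is read from that comparison. Without WT replicate 1 the WT mean summed over all Ty genes went from 489.6 to 586.8 CPM. When 1 replicate was left out, 0 to 1 Ty genes rose in pah1Δ against WT, against 12.5% to 21% of all genes. There 0 to 5 fell, against 7.24% to 19% of all genes. The number of Ty genes that rose was 2 in place of 0 in 3 other fits. These were library size only, the length trend removed, and a replicate block with the length trend removed. Of all genes 21.8%, 22.7% and 20.8% rose in them, against 16.6% in the main fit. YDR261W-B passed in these 3 fits (adjusted p 0.00314 to 0.0374), YDR098C-B with library size only (0.0358) and YGR109W-B in the 2 fits without the length trend (0.0323 and 0.0349). Among named Ty genes, 19 of 162 recomputed log2 fold changes for pah1Δ against WT changed sign, none of a gene called in either fit. With library size only, a replicate block, the length trend removed, both of these, and limma on FPKM, YLR227W-B went from -0.02 to 0.048, 0.034, 0.13, 0.15 and 0.14, and YOR343W-B from -0.03 to 0.037, 0.064, 0.13, 0.19 and 0.18. When 1 replicate was left out, YLR227W-B ran from -0.40 to 0.28, YBL100W-B from -0.12 to 0.46, YOR343W-B from -0.50 to 0.51, YGR109W-B from -0.023 to 0.26 and YLR410W-B from -0.71 to 0.69. In dgk1Δ against WT, 1 Ty gene in place of 2 was called higher with only the 2 groups compared, with a replicate block and with limma on log2(FPKM + 1). Of all genes 1.35%, 1.48% and 1.74% were called higher in these fits, against 1.64% in the main fit. When 1 replicate was left out, 1 to 2 Ty genes were called higher, against 1.29% to 2.3% of all genes. YLR256W-A was the gene lost. The Ty genes were chosen with the rise of YDR098C-B in this contrast known, so nothing is read from its calls. In pah1Δ against dgk1Δ, 1 Ty gene in place of 0 was called higher with only the 2 groups, with the length trend removed and with that removal and a replicate block. Of all genes 18.4%, 19.6% and 17.9% were called higher in these fits, against 14.2% in the main fit. Without 1 replicate, 0 to 1 Ty genes were called higher, against 10% to 12.3% of all genes. In the same contrast 9 Ty genes were called lower with only the 2 groups, 5 with the length trend removed and 5 with DESeq2, in place of 3. Of all genes 16.5%, 17.4% and 11% were called lower in these fits, against 10.8% in the main fit. Host genes that fell in pah1Δ against WT numbered 2 when just the 2 groups were fitted, 1 with library size only, 10 with the length trend removed, 9 with a replicate block added to that, 10 with DESeq2 and 1 with limma on FPKM, in place of 4. Of all genes 7.96%, 7.8%, 18.8%, 17.4%, 13.9% and 7.51% fell in these fits, in place of 12.6%. When 1 replicate was left out, 3 to 19 host genes fell (19 without WT replicate 1), against 7.24% to 19% of all genes. In pah1Δ against dgk1Δ the host genes that fell numbered 13 with only the 2 groups, 2 with library size only, 3 with the replicate block and 2 with limma on FPKM, in place of 8. Of all genes 16.5%, 7.11%, 7.97% and 7.12% fell in these fits, in place of 10.8%. When 1 replicate was left out, 2 to 7 host genes fell, against 6.13% to 9.21% of all genes. The median of the genes flanking YDR098C-B was 0.082 with library size only and 0.088 with limma on FPKM, and 0.0077 to 0.12 when 1 replicate was left out; that of YLR256W-A was -0.019 to 0.052. The stretch medians on III and IX were 1.00 to 1.03 and 0.87 to 0.98 when 1 replicate was left out. The cause of these shifts was not tested. Same-numbered libraries did not consistently deviate together (correlations -0.507 to 0.359). These correlations include each library's trend with gene length, so they cannot show whether the numbers pair the samples. No library was paired for the report. Low counts limit Ty4 and most Gag genes, and repeated sequence limits the split among Ty1 copies.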
